A study of Mus musculus with 6 samples.

Results

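The serine synthesis and one-carbon enzymes described here are 8 mouse genes, Phgdh, Psat1, Psph, Shmt1, Shmt2, Mthfd1, Mthfd2 and Mthfd1l, chosen by name and matched through their Entrez Gene identifiers. All 8 were found among the 26286 genes of the count table, and all 8 passed the filter on low counts, as did 12275 genes in all. RNA sequencing was done on leukemia cells sorted by flow cytometry out of the marrow of Rag1 knockout hosts, 3 untreated and 3 given doxycycline (dox) in the food for 3 days. All 6 libraries came from 1 tri-transgenic leukemia, named A024 in the labels. The replicates are therefore at most separate mice with the same leukemia, and no p-value here speaks of other leukemias. The labels give GFP-high cells for the untreated group and GFP-mid cells for the group they describe as Pax5 restoration. Sort gate, drug and Pax5 level therefore changed together and cannot be told apart. As general background on this model, a short hairpin RNA against Pax5 is expressed with GFP from a promoter that dox shuts off, under a transactivator driven by Vav regulatory elements, beside a constitutively active Stat5b transgene. A Rag1 knockout host makes no mature B or T cells of its own but keeps its myeloid cells. The labels give no age for the mice.

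Serine is made from the glycolytic intermediate 3-phosphoglycerate by Phgdh, which oxidises it, Psat1, which adds the amino group, and Psph, which removes the phosphate. Serine hydroxymethyltransferases then split serine into glycine and a one-carbon unit carried on tetrahydrofolate, Shmt1 in the cytosol and Shmt2 in mitochondria. Mthfd2 and Mthfd1l carry the mitochondrial unit on to formate, and Mthfd1 takes up formate in the cytosol for the synthesis of purines and thymidylate. Proliferating lymphoid cells are known to depend on this supply, and both Myc and Atf4 are known as activators of several of these genes.

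The libraries held 14185203 to 15612435 counts. Pax5 (Entrez Gene 18507), the target of the hairpin, stood at 153.8, 93.5 and 105.2 CPM (read counts scaled to a common library total and composition) in untreated replicates 1, 2 and 3. In dox replicates 1, 2 and 3 it stood at 227.2, 281.2 and 230.6 CPM. The lowest dox library was above the highest untreated one, with a log2 fold change of 1.07 (SE 0.17, adjusted p = 0.000695, edgeR quasi-likelihood test). The B lineage markers were present in all libraries, with a summed level of 4220 to 4272 CPM in untreated and 7143 to 7797 CPM in dox libraries, and all 7 were called higher, Vpreb1 among them. Of 9 neutrophil markers, led by S100a9 and S100a8, 8 were called higher, with sums of 89.1 to 114.6 CPM before and 114.8 to 532.5 CPM after dox, the highest in dox replicate 1. Of 9 macrophage markers, led by Lyz2 and Vcam1, 8 were called higher, with sums of 20.1 to 29.1 CPM before and 51.0 to 112.9 CPM after. Of 6 erythroid markers (Hbb-b1 and Hba-a1 led), 3 had enough counts to be tested and did not pass (adjusted p of 0.279 to 0.922, edgeR). Of 7 T and NK cell markers (Klrb1c and Gzma led), Klrb1c alone was tested and was not called, with Cd3e and Cd8a at 0 counts in all 6 libraries. Of 7 stromal and endothelial markers, 3 were tested and 2, Pecam1 and Col1a1, were called higher. The list summed to 94.8 to 102.9 CPM before and 129.9 to 160.9 CPM after dox. Most of this was Pecam1, with means of 97.5 and 145.3 CPM. Col1a1 rested on 8 to 38 counts per library, and Cdh5 and Kdr were too low to be tested.

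Transcripts of 7 of the 8 enzymes fell after dox, by 1.64-fold to 2.72-fold, and 1, Psph, did not pass the test. Calls rest on the edgeR quasi-likelihood test with Benjamini-Hochberg adjustment over the whole table and a threshold of 0.05, by which 53.6% of all genes were called, 26.6% lower and 27% higher. The 7 falls had adjusted p of 0.00133 or less. For the same 7 genes the untreated and dox libraries did not overlap, as was so in the lower direction for 31% of all genes. The median log2 fold change of the 8 enzymes was −0.84, beside 0.01 over all genes tested. Shmt1 and Mthfd1, both cytosolic, fell by more than 2-fold, a depth reached by 3.86% of all genes. All 7 genes were called lower with any single library left out. The part of the neutrophil and macrophage marker RNA in these falls was not tested. In sorted cells measured in bulk, fewer cells expressing a gene and less RNA per cell cannot be told apart.

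**Figure D1:**
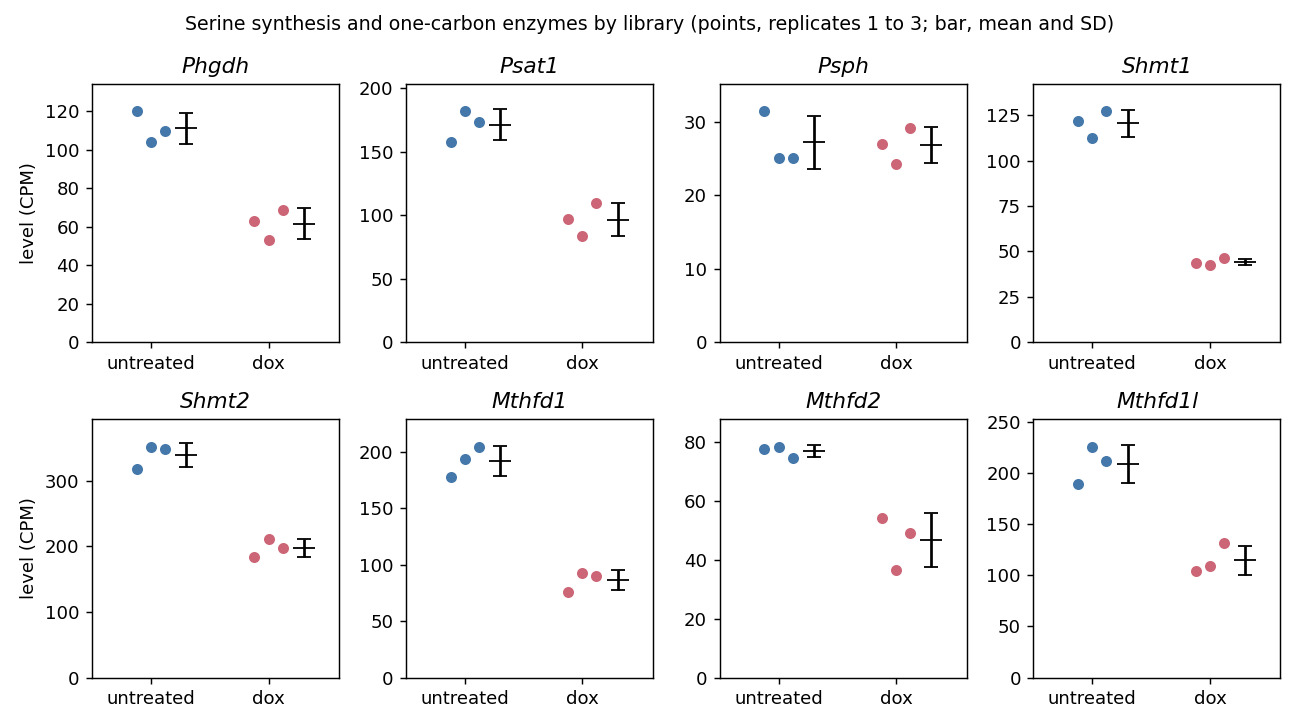
Level of each enzyme in CPM (vertical axis from 0) in the 3 untreated (blue) and 3 dox (red) libraries, replicates 1 to 3 from left to right, with the mean and SD beside them. The groups are apart for 7 genes, and those of Psph overlap.

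**Figure D2:**
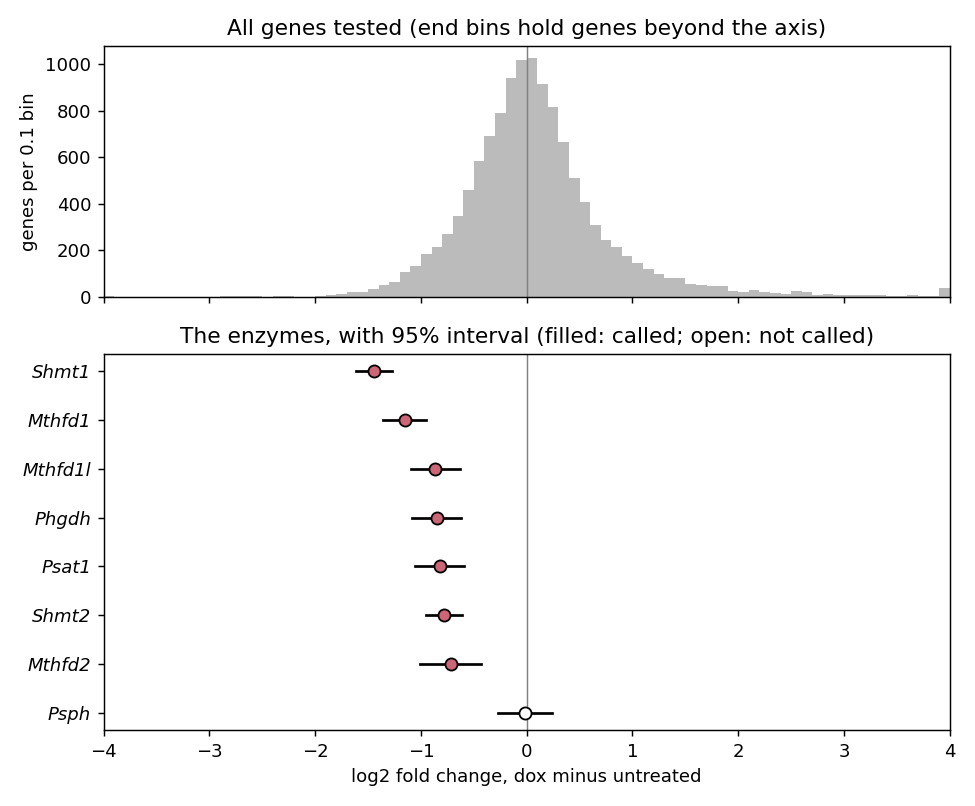
Log2 fold change (dox minus untreated, horizontal axis) of all genes tested as a histogram (top) and of the 8 enzymes with 95% intervals (bottom), filled where called. Shmt1 stands lowest at −1.44, and the interval of Psph spans 0.

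Because 7 genes moved together, their promoters were compared in RefSeq windows of 300 bases on GRCm38.p6, a later build than the mm9 of the counts, each reaching from 250 bases before a transcription start to shortly after it. There were 9 windows for the 8 genes, since Psat1 has 2 starts. Of each, only bases before the start are shown, for Shmt1 as the deepest fall, Phgdh as the first enzyme of the route, Mthfd1 as the other fall past 2-fold and Psph as the gene that was not called. Each stretch has 120 bases, 5′ to 3′ on the strand of the gene and ending at the base before the start, with capitals marking matches to CCAAT (bound by NF-Y) or GGGCGG (the GC box, bound by Sp factors) on either strand.
Shmt1, chr11:60811266-60811385, minus strand: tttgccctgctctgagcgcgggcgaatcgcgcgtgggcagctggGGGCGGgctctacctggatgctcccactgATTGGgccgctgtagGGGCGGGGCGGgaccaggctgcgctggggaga
Phgdh, chr3:98339970-98340089, minus strand: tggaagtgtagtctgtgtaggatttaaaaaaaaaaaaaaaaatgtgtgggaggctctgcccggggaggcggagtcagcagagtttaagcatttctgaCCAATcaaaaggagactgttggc
Mthfd1, chr12:76255112-76255231, plus strand: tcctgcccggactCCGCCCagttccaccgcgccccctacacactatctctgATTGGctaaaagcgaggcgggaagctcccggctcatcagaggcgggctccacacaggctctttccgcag
Psph, chr5:129787254-129787373, minus strand: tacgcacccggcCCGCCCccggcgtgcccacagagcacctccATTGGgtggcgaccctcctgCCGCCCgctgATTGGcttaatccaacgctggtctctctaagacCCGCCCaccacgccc

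The CCAAT letters occurred in 6 of the 9 windows, those of Phgdh, Psat1 (1 of its 2 starts), Psph, Shmt1, Mthfd1 and Mthfd2, and in 37.4% of all 32851 windows of the table. GGGCGG occurred in 5 of the 9 (Psat1, Psph, Shmt1, Mthfd1 and Mthfd1l) and in 35.7% of all windows. A pair of GGGCGG matches in Shmt1 shares 1 base. TATAAA occurred only in the window of Phgdh among the 9, overlapping a CCAAT match by 1 base, and in 13.6% of all windows. Neither CACGTG, the E-box letters bound by Myc with Max, nor TGATGNAA, the letters of the composite element bound by Atf4, occurred in any of the 9, against 7.15% and 3.97% of all windows, which says only that these letters are not in these windows. Psph, which was not called, carried the same CCAAT and GGGCGG letters as Shmt1, which fell most.

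In the serine synthesis branch, the first and second enzymes fell and the last was not called. Phgdh (Entrez Gene 236539), the entry step, measured 119.9, 104.0 and 109.7 CPM in untreated replicates 1, 2 and 3 and 63.1, 53.0 and 68.8 CPM in dox replicates 1, 2 and 3. Its highest dox library stayed below its lowest untreated one, and its log2 fold change was −0.85 (SE 0.10, 95% interval −1.08 to −0.62, adjusted p = 0.000147, edgeR). Psat1 (107272), the aminotransferase, measured 157.8, 181.6 and 173.5 CPM in the untreated and 97.2, 83.2 and 109.2 CPM in the dox replicates, again with no overlap. It changed by −0.82 on the log2 scale (SE 0.10, adjusted p = 0.000172, edgeR), close to that of Phgdh. Psph (100678), the phosphatase that releases serine, measured 31.4, 25.0 and 25.1 CPM before and 27.0, 24.2 and 29.1 CPM after dox, so that its groups overlapped. Its log2 fold change was −0.02 with a 95% interval of −0.28 to 0.24 (adjusted p = 0.904, edgeR), an interval that leaves out a fall as large as that of Phgdh or Psat1. Its sign turned under upper-quartile scaling (0.0053) and without untreated replicate 1 (0.093) or dox replicate 2 (0.047), always within that interval.

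Per kilobase of gene length, Phgdh stood at 3.38 ± 0.23 times the level of Psph in untreated libraries and 1.89 ± 0.08 times after dox (SD, n = 3 each), with no overlap. The ratio of Phgdh to Psat1 was 0.75 ± 0.11 before and 0.73 ± 0.01 after (SD, n = 3), overlapping. The summed level of the 3 genes, in RPKM (CPM per kilobase of gene length), was 158.6, 157.2 and 156.5 in the untreated and 96.9, 83.2 and 107.0 in the dox replicates. Untreated libraries were thus close to each other in this sum and dox libraries spread more widely, with dox replicate 2 lowest for the sum and for each of Phgdh, Psat1 and Psph. No test of these sums and ratios was made.

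Some reads of this branch could have been shared with other genes. In GENCODE M21 transcripts, 47.8% of the 50-base windows of Phgdh also occurred in transcripts of 20 other genes on the same strand, most of them predicted genes and one named as a Phgdh pseudogene. Of these, 1 was found in the count table by its symbol, Gm8096, with 43, 35 and 41 counts in untreated and 24, 13 and 25 in dox replicates, far below the 762 to 1716 counts of Phgdh. How reads with several matches were counted is not given in the sources used here, so the level of Phgdh is uncertain. The ratios and the sum given above that include Phgdh share this limit. Of the windows of Psph, 8.82% lay opposite transcripts of Cct6a, a chaperonin subunit gene, which itself fell (log2 fold change −0.77, SE 0.08, adjusted p = 5.8e-05, edgeR). Of those of Shmt1, 3.37% lay opposite Smcr8, which rose by 0.21 (SE 0.07, adjusted p = 0.0375, edgeR). Shared windows on the same strand made up 1.25% for Shmt2 and 0.739% for Psat1, and there were none on either strand for Mthfd1, Mthfd2 and Mthfd1l. The part of such reads in the results was not tested.

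By point estimate, the cytosolic folate enzymes fell furthest. Shmt1 (20425), the cytosolic hydroxymethyltransferase, measured 121.8, 112.8 and 127.2 CPM in untreated replicates 1, 2 and 3 and 43.9, 42.7 and 46.2 CPM in the 3 dox replicates. These lay within a narrow band far below the untreated ones, a 2.72-fold fall (log2 fold change −1.44, SE 0.08, 95% interval −1.61 to −1.27, adjusted p = 2.85e-06, edgeR). Only 0.921% of all genes tested had a lower log2 fold change than Shmt1. Mthfd1 (108156), the trifunctional cytosolic enzyme that activates formate, measured 178.2, 193.4 and 204.5 CPM before and 76.1, 92.7 and 90.0 CPM after dox. Its groups were likewise apart, with a 2.23-fold fall (log2 fold change −1.16, SE 0.09, 95% interval −1.36 to −0.95, adjusted p = 1.53e-05, edgeR), and 2.32% of all genes had a lower value.

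The mitochondrial enzymes fell by 1.64-fold to 1.82-fold. Shmt2 (108037), the mitochondrial hydroxymethyltransferase, measured 318.2, 351.9 and 347.9 CPM in the untreated and 184.3, 211.8 and 197.1 CPM in the dox replicates, without overlap. Its log2 fold change was −0.78 (SE 0.08, 95% interval −0.95 to −0.61, adjusted p = 4.66e-05, edgeR), an interval that does not reach that of Shmt1. Mthfd1l (270685), the mitochondrial formate-producing enzyme, measured 188.7, 225.5 and 211.2 CPM before and 103.9, 108.6 and 131.1 CPM after dox. Its libraries did not overlap either, and the log2 change was −0.86 (SE 0.10, adjusted p = 0.000132, edgeR). Mthfd2 (17768), the mitochondrial dehydrogenase and cyclohydrolase known for its high level in embryonic and transformed cells, measured 77.6, 78.4 and 74.5 CPM before and 54.3, 36.5 and 49.2 CPM after. Untreated libraries were close together, and dox replicate 2 was the lowest. The log2 fold change of Mthfd2 was −0.72 (SE 0.13, 95% interval −1.01 to −0.43, adjusted p = 0.00133, edgeR), the smallest of the 7 falls, and −0.57 without dox replicate 2. The interval of Mthfd2 overlapped that of the cytosolic Mthfd1.

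The mitochondrial genes held a larger share of the folate enzyme transcripts after dox, at lower levels of both compartments. Summed RPKM of Shmt1 and Mthfd1 went from 116.2 ± 6.03 to 47.4 ± 2.84, and that of Shmt2, Mthfd2 and Mthfd1l from 234.1 ± 12.2 to 135.7 ± 4.72 (SD, n = 3 each). The mitochondrial share of the 5 genes was 66.2%, 68.4% and 65.8% in untreated and 74.8%, 73.6% and 74.0% in dox replicates 1, 2 and 3. The ratio of Shmt2 to Shmt1 was 2.37, 2.83 and 2.48 before and 3.80, 4.49 and 3.86 after dox. Every dox library was above every untreated one in both measures. The ratio of Mthfd2 to Mthfd1 was 0.64 ± 0.06 before and 0.89 ± 0.26 after (SD, n = 3), with groups that overlapped, since dox replicate 2 stood at 0.63. These are descriptions of transcript levels, with no test.

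**Figure D3:**
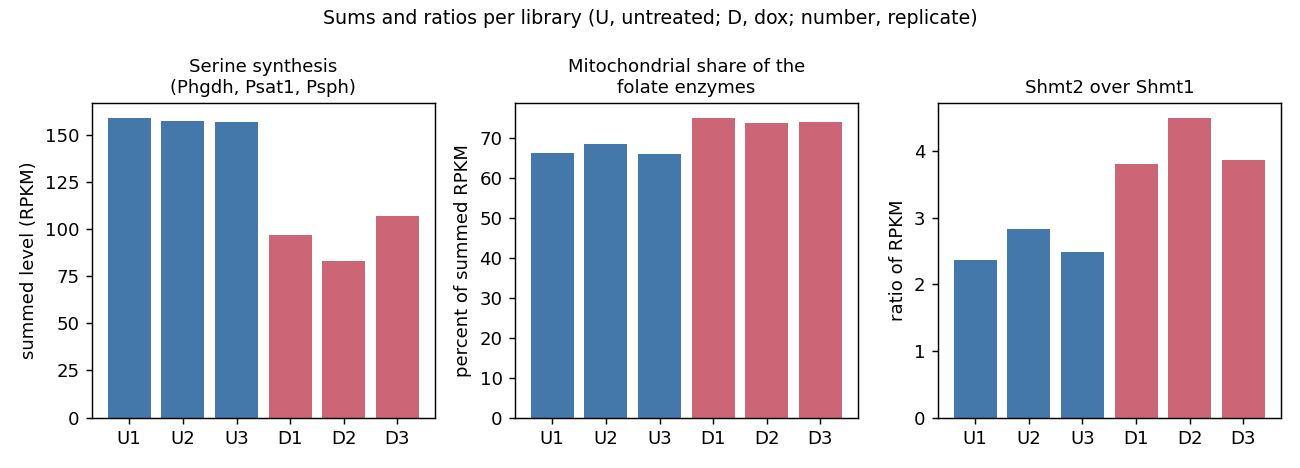
Bars give, for each of the 6 libraries, the summed RPKM of Phgdh, Psat1 and Psph (left), the percent of the summed RPKM of the 5 folate enzymes that is mitochondrial (middle) and the ratio of Shmt2 to Shmt1 (right), all from 0. The sum is lower and both other measures are higher in all 3 dox libraries (red) than in the untreated ones (blue).

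Ordered by mean RPKM, untreated cells held Shmt2 (148.8), Psat1 (80.3), Phgdh (59.4), Shmt1 (58.4), Mthfd1 (57.8), Mthfd1l (48.1), Mthfd2 (37.1) and Psph (17.7). The ranges of Phgdh, Shmt1 and Mthfd1 over their libraries overlapped, so the order among these 3 is not set, whereas the ranges of the other neighbours were apart. The place of Phgdh is also uncertain because of its shared windows. After dox the order was Shmt2 (86.7), Psat1 (45.3), Phgdh (33.0), Mthfd1l (26.4), Mthfd1 (25.9), Mthfd2 (22.6), Shmt1 (21.4) and Psph (17.4). Shmt1 thus went from the fourth place to the seventh. Ranges of neighbours overlapped from Phgdh to Shmt1 in the dox libraries, and those of Shmt2, Psat1 and Phgdh were apart, as were those of Shmt1 and Psph.

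Enzymes that use or carry the folate-bound unit fell in most cases. Of 19 genes of the folate cycle, folate transport and folate use, 12 were tested, of which 7 fell, 1 rose and 4 did not pass, with a median log2 fold change of −0.53. Beside this and the later list counts, 26.6% of all genes tested were called lower and 27% higher. Tyms, the thymidylate synthase, fell from 90.8 ± 4.56 to 38.3 ± 2.05 CPM (SD, n = 3; log2 fold change −1.25, SE 0.08). Gart and Atic, which take formyl groups into the purine ring, changed by −0.97 (SE 0.08) and −1.02 (SE 0.09), and all 3 had adjusted p of 2.54e-05 or less (edgeR). The carriers Slc25a32 (mitochondrial) and Slc19a1 (plasma membrane) and Fpgs, which retains folates in the cell, were among the others that fell, with log2 fold changes of −0.66 (SE 0.09), −0.68 (SE 0.11) and −0.40 (SE 0.10). Mthfd2l, the close relative of Mthfd2, was low in all libraries (0.54 to 1.26 CPM) and was not called (0.17, adjusted p = 0.727, edgeR).

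In glycine cleavage, a mitochondrial system that also yields one-carbon units, 3 of 4 genes were tested. Gcsh (log2 fold change −0.49, adjusted p = 0.014) and Dld (−0.31, adjusted p = 0.0162) fell, and Amt rose from 1.28 ± 0.06 to 2.55 ± 0.50 CPM (SD, n = 3; adjusted p = 0.00998, edgeR). Gcsh was not called without untreated replicate 1 (adjusted p = 0.0524), nor Dld without dox replicate 1 (adjusted p = 0.0546). Gldc, the decarboxylase of the system, had 13, 1 and 0 counts in untreated and 7, 5 and 9 in dox replicates and was not tested.

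Of 16 genes of the methionine cycle and methionine salvage, 12 were tested, of which 6 fell, none rose and 6 did not pass (median −0.29). Mtap, the first enzyme of salvage, fell from 88.7 ± 4.23 to 43.9 ± 4.56 CPM and Mat2a, which makes S-adenosylmethionine, from 374.4 ± 21.4 to 214.3 ± 11.2 CPM (SD, n = 3). Their log2 fold changes were −1.02 (SE 0.09) and −0.81 (SE 0.07), and that of Ahcy, which clears S-adenosylhomocysteine, was −0.91 (SE 0.12), with adjusted p of 0.000286 or less for all 3 (edgeR). Apip, another salvage enzyme, was called higher only without dox replicate 2 (0.44).

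Of 5 genes of transsulfuration and glutathione synthesis, 4 were tested and 3 fell (median −0.54). Gclc, the catalytic subunit of the rate-limiting enzyme of glutathione synthesis, changed by −0.75 (SE 0.09, adjusted p = 0.000145) and its partner Gclm by −0.32 (SE 0.09, adjusted p = 0.0152, edgeR), the latter not called without untreated replicate 2 (adjusted p = 0.0506). Cth, which makes cysteine, rested on 22, 11 and 24 counts before and 11, 2 and 8 after dox, and its call (adjusted p = 0.0367, edgeR) was lost with the DESeq2 test and without any one of untreated replicates 1 and 3 and dox replicates 2 and 3.

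Of 19 genes of serine transport and of other uses of serine, 15 were tested, of which 7 rose, 2 fell and 6 did not pass (median 0.31). The call of Srr, the serine racemase, was lost without any one of untreated replicates 1, 2 and 3 and dox replicates 1 and 2 (adjusted p of 0.0502 to 0.0908, edgeR). Slc1a5, a carrier of glutamine, serine and other neutral amino acids, rose from 276.4, 288.2 and 292.8 CPM to 614.2, 628.0 and 560.9 CPM (log2 fold change 1.07, SE 0.07, adjusted p = 8.69e-06, edgeR). Serinc5, a membrane protein of the serine incorporator family, rose from 269.4 ± 49.3 to 761.9 ± 79.9 CPM (SD, n = 3), a 2.83-fold rise. Sfxn1, which carries serine into mitochondria, fell from 211.8 ± 8.81 to 132.6 ± 7.15 CPM (SD, n = 3; log2 fold change −0.68, SE 0.07, adjusted p = 5.59e-05, edgeR). Of the other Sfxn genes listed, Sfxn3 rose (0.54, adjusted p = 0.00804, edgeR) and Sfxn2 was not called (0.04, adjusted p = 0.886, edgeR). Slc38a1 was the other fall (−0.20, adjusted p = 0.0267, edgeR), not called without untreated replicate 2, untreated replicate 3 or dox replicate 1.

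**Figure D4:**
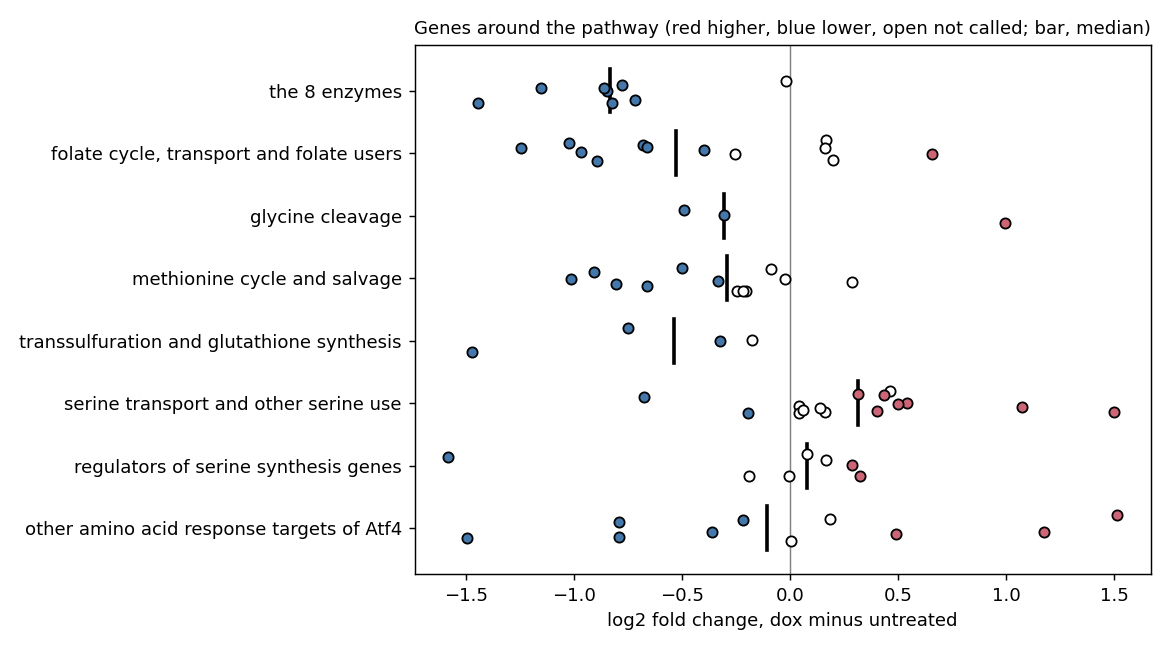
Each point is 1 tested gene, by its log2 fold change (dox minus untreated, horizontal axis) and its list (rows), red where called higher, blue where called lower and open where not called, with the median as a bar. The folate list has its median at −0.53, and the list of serine transport and other serine use at 0.31.

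The known activators of serine synthesis genes moved in opposite directions. Myc stood at 289.7, 276.1 and 317.2 CPM before dox and at 87.8, 116.5 and 90.1 CPM afterwards (log2 fold change −1.59, SE 0.11, adjusted p = 1.03e-05, edgeR). Atf4, the amino acid response factor, measured 174.7, 164.6 and 163.6 CPM before and 216.4, 185.7 and 226.8 CPM after (0.32, SE 0.08, adjusted p = 0.00956, edgeR). Atf4 is known to be controlled largely at translation, so that its transcript level is no measure of its activity. Of the 7 regulators on the list, 2 rose (Atf4 and Kdm4c, a histone demethylase, by 0.28), 1 fell (Myc) and 4 did not pass, among them Nfe2l2 (−0.19, adjusted p = 0.0516, edgeR), which was called lower under 5 other settings and without dox replicate 1.

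Other amino acid response targets of Atf4 did not move as one. Of 14, 10 were tested, of which 3 rose, 5 fell and 2 did not pass, with a median of −0.11. Over all genes tested, 27% were called higher and 26.6% lower. Chac1, a glutathione-degrading enzyme, rose from 6.57, 3.42 and 3.33 CPM to 8.49, 21.2 and 8.39 CPM (log2 fold change 1.51, SE 0.41, adjusted p = 0.0115, edgeR), highest in dox replicate 2. Trib3, a pseudokinase (1.17, SE 0.33), and Ddit3, the transcription factor CHOP (0.49, SE 0.16), were the other 2 that rose. The 5 that fell were Slc7a5 and Slc3a2, the chains of a large neutral amino acid carrier (−0.79 and −0.22), Slc7a11, the cystine carrier (2.57 ± 0.60 to 0.90 ± 0.61 CPM, SD, n = 3), and the proline synthesis enzymes Aldh18a1 (−0.36) and Pycr1 (−0.79). Without untreated replicate 1, untreated replicate 3 or dox replicate 2 the number lower was 3, and without untreated replicate 2 it was 2 (Slc7a5 and Aldh18a1). Without untreated replicate 3 or dox replicate 1 the number higher was 1 (Chac1).

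The genes whose pattern over the 6 libraries was most like that of an enzyme were ranked by the root mean square difference of log2 CPM centred on the mean of each gene, a description with no test. For Phgdh they were Rnaseh2b, a subunit of ribonuclease H2 (difference 0.042), an identifier without a matched symbol (Entrez Gene 100504222, 0.047) and Ifrd1, a transcriptional coregulator (0.049). For Mthfd2 they were Ube2s, a ubiquitin-conjugating enzyme of mitosis (0.064), Lsm3, an RNA-binding protein of the spliceosome (0.083), and Pimreg, a mitotic regulator (0.088). All 6 lay between −0.93 and −0.67 in log2 fold change, near Phgdh and Mthfd2, which follows from how they were chosen.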

How the data were processed

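The values the authors deposited are raw counts, 1 row per Entrez Gene number beside its length, and the 6 per-sample files held the same counts as the series table. The build was mm9 and the tools CASAVA 1.8.2 and featureCounts, per the submitters' processing notes. The sources used here do not name an aligner, an annotation or a strand setting. Of 26286 identifiers, 24176 matched a RefSeq symbol. From the counts, genes were filtered with filterByExpr (minimum count 10), which left 12275 genes with 99.93% of counts, scaled by TMM (factors 0.991 to 1.009) and tested over 2 groups of 3 libraries with the quasi-likelihood test of edgeR 4.0.16 in R 4.3.3, without covariates. RPKM is TMM-scaled CPM per kilobase of the deposited length. SE is the absolute log2 fold change divided by the square root of F, and intervals use the same fit. The scripts were tested on simulated counts. No pair of replicates was as close as sampling noise.

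The members and lists were chosen with earlier results of these data known. Named are all members, the 3 genes of smallest p in each pathway list, the members behind counts of 5 or fewer in a direction, Myc, Atf4, the 2 most abundant markers per marker list and the 3 genes most like Phgdh and Mthfd2 (mean of at least 5 CPM). A few genes picked this way are left out of the text. Other genes were named after their values were seen, as were the motifs and the checks of shared windows. Alternatives were DESeq2 1.42.0 (size factors, test), upper-quartile scaling, total counts, no filter, 1 CPM in 3 libraries, limma 3.58.1 voom, the replicate block and leaving out each library.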

Additional observations from a re-analysis of the deposited data

How the results depend on the processing

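Under all 14 alternatives, leaving out each library included, 7 members were called lower and 0 higher, the largest adjusted p of any of the 7 being 0.00627. Only Psph turned sign, to 0.0053 with upper-quartile scaling and between −0.091 and 0.093 over the left-out libraries, and it was called in none. Over left-out libraries, genes called lower ranged from 2791 to 3193 and higher from 2693 to 3168. With the replicate number as a block, 7 members were called lower and the regulators lower were 2. Whether the numbers pair the samples was not settled. Correlations of deviations were 0.31, 0.29 and −0.04 for replicates 1, 2 and 3. Replicates 1 and 2 correlated best with their own numbers, against −0.34 and −0.28 for the crossed pairs, and replicate 3 did not. Among regulators, Nfe2l2 made the number lower 2 with DESeq2 size factors, total counts, no low-count filter and limma voom. Over left-out libraries the number lower ran from 1 to 2 for regulators, 1 to 2 for glycine cleavage, 1 to 2 for serine transport and use, 2 to 3 for transsulfuration and glutathione synthesis, and 2 to 4 for Atf4 targets, while the number higher ran from 1 to 3 for Atf4 targets and 0 to 1 for the methionine cycle. The mitochondrial share was higher after dox by 6.72 to 8.10 percentage points in every alternative run. Library scaling cancels in a share, so DESeq2 size factors, upper-quartile scaling and total counts could only repeat the main value of 7.31. No scaling moved the median of all genes past 0.04 (log2). Depth limits Cth, Gldc and other genes under about 1 CPM.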

Other observations

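Asns, the asparagine synthetase gene and an amino acid response target of Atf4, was nearly without reads in this leukemia. Untreated replicates 1, 2 and 3 gave 0, 2 and 0 counts and each dox library gave 1, so that it was left out by the filter on low counts. The other targets Vldlr, Nupr1 and Stc2 had 0 CPM in every library. Lymphoblastic leukemias with little asparagine synthetase are known for their sensitivity to asparaginase, which was not studied here. The cytosolic and mitochondrial enzymes that oxidise formyl-tetrahydrofolate were also low, Aldh1l1 with 0, 1 and 0 counts before and 0 in each dox library, and Aldh1l2 with 6, 1 and 2 counts before and 1, 1 and 4 after. Genes of the liver form of the methionine cycle, Mat1a, Bhmt and Bhmt2, and Cbs, the first enzyme of transsulfuration, had 0 CPM in all libraries.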
